A study of Mus musculus with 3 samples.

Results

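The INK4 and KIP inhibitors of the cell cycle are described here in spatial transcriptomes of mouse thymus. The 6 genes are *Cdkn2a*, *Cdkn2b*, *Cdkn2c* and *Cdkn2d* (INK4) and *Cdkn1b* and *Cdkn1c* (KIP), out of 54838 genes listed in the deposited tables. They were chosen by family membership, and all 6 had unique molecular identifiers (UMIs, each marking 1 captured RNA molecule) in every section. The data were 3 thymus sections of female C57BL/6 mice. KO sections came from *Trp53*-/- mice, in which the gene for p53 is inactivated in every cell: the section labelled KO1134 at 17 weeks of age and the section labelled KO1308 at 21 weeks. The WT section, WT1101, came from a *Trp53*+/+ mouse of 17 weeks. No allele or treatment was shared by the groups other than the strain background. The question was whether the high level of *Cdkn2a* in KO thymus was also seen for its chromosomal neighbour *Cdkn2b* or for the rest of the family.

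INK4 proteins bind the kinases CDK4 and CDK6 and keep them from pairing with D cyclins, so that the retinoblastoma protein stays active and cells are held before S phase. KIP proteins bind complexes of cyclins and kinases, chiefly those of CDK2, and block their activity. *Cdkn2a* is unusual in encoding 2 unrelated proteins from alternative starting exons: p16Ink4a, an INK4 inhibitor, and p19Arf, which binds MDM2 and thereby stabilises p53. In the thymus these genes act where thymocytes pass between bursts of division and rest.

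UMIs of neighbouring spots were added up in squares of 27 µm (bins), each of which can hold several cells of different types. A bin needed 300 detected genes, with no more than 30% of its UMIs from mitochondria. Within connected tissue, 12018 bins of KO1134, 15973 of KO1308 and 27096 of WT1101 remained, with 2590, 1096 and 1497 UMIs per bin on average. Bins of the thymus area, set by 6 thymus genes in the surrounding 7 × 7 bins, were split by the level of the CD3 genes into CD3-positive bins (2307, 5696 and 15871), CD3-negative bins (2546, 6478 and 5348) and bins between the limits (3794, 1079 and 3475). The CD3 level is relative to the UMIs of the bin, so a lone CD3 UMI can pass in a shallow bin but not in a deep one. The classes thus also depend on depth, which differed between sections. The B-cell zone, where B cell genes outweighed the thymus genes, held 1965 and 456 bins in the KO sections and 0 in WT. The remaining tissue, poor in the 6 thymus genes, held 1406, 2264 and 2402 bins and is called thymus-gene-poor tissue here, since it need not lie outside the organ. A level is given in CPM, counts per 1000000 UMIs of all bins of a compartment. In such sums, fewer cells of a type and less RNA per cell cannot be told apart. UMI counts were not divided by transcript length.

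*Trp53* itself was measured first, as a check of the labels. In CD3-positive bins it had 12.6 CPM in KO1134, 22.4 CPM in KO1308 and 80.2 CPM in WT1101, so both KO sections were below WT, at 0.157 (95% interval 0.122 to 0.199) and 0.279 (0.234 to 0.331) of its level. All intervals here are exact and cover counting error only. With 1 WT section there was no test between genotypes, both KO sections were set beside the same WT section, and how far apart the KO sections lay is all that these data show of the spread between mice. Permeabilisation was longer for KO than for WT sections by the methods, and this cannot be told apart from genotype.

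The 3 CD3 genes that set the compartments summed to 1279, 1705 and 1943 CPM in CD3-positive bins of KO1134, KO1308 and WT1101, and to 0, 0 and 0.618 CPM in CD3-negative bins, values that the rule itself fixes. CD3-negative bins still held thymocyte RNA, with 188.5, 1279.5 and 2461.9 CPM of the 6 double-positive thymocyte markers. They were also shallower, with a median of 1768.5, 649 and 748.5 UMIs per bin against 2558, 988 and 1435 in CD3-positive bins. The thymus-gene-poor tissue was not the same in the 3 sections. In WT1101 it was rich in the 7 medullary epithelial markers (all detected, 1264 CPM in sum, led by the chemokine *Ccl21a*) and still held 1148 CPM of the CD3 genes, 842 CPM of the 6 double-positive thymocyte markers and 741 CPM of the 6 dendritic cell markers, with 105 CPM of the 5 white adipocyte markers (*Plin1* and *Lep* at 0) and 7.74 CPM of the 4 brown adipocyte markers (*Ucp1* at 0). In KO1134 and KO1308 the medullary list was close to that, at 1462 and 1089 CPM, but all white adipocyte markers were detected, with 4361 and 6025 CPM led by the fatty acid carrier *Fabp4*, and the brown list reached 1783 and 3592 CPM led by *Cox8b*. The CD3 genes stood at 443 and 441 CPM there. In this compartment KO tissue with medullary and fat markers was therefore set beside WT tissue rich in medullary and T cell markers, and no contrast of inside with outside the organ can be read from it.

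In CD3-positive bins, 2 of the 6 genes, *Cdkn2a* and *Cdkn2b*, were at least 2-fold above WT in both KO sections and 0 were at or below 0.5 of WT in both. Over all 14631 genes with at least 100 UMIs there, 7.48% were at least 2-fold above WT in both KO sections and 1.59% at or below 0.5 in both. *Cdkn2b* had 84 UMIs and was below that minimum, so it was measured but lies outside the background; the other 5 genes passed. In CD3-negative bins the same 2 genes were above and 0 below, beside 5.1% and 2.24% of all genes, with *Cdkn2b* and *Cdkn1c* under the minimum. In thymus-gene-poor tissue 1 gene, *Cdkn2a*, was above and 1, *Cdkn2d*, below, beside 5.03% and 4.64%. Over the whole thymus area, where all 6 genes passed the minimum, *Cdkn2a* and *Cdkn2b* were above and 0 below, beside 10.6% and 1.76%. The median ratio to WT over all genes in CD3-positive bins was 0.983 for KO1134 and 1.10 for KO1308, and 0.941 and 1.02 in CD3-negative bins. In thymus-gene-poor tissue it was 0.823 and 0.822, so ratios there start from a scale below WT.

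**Figure D1:**
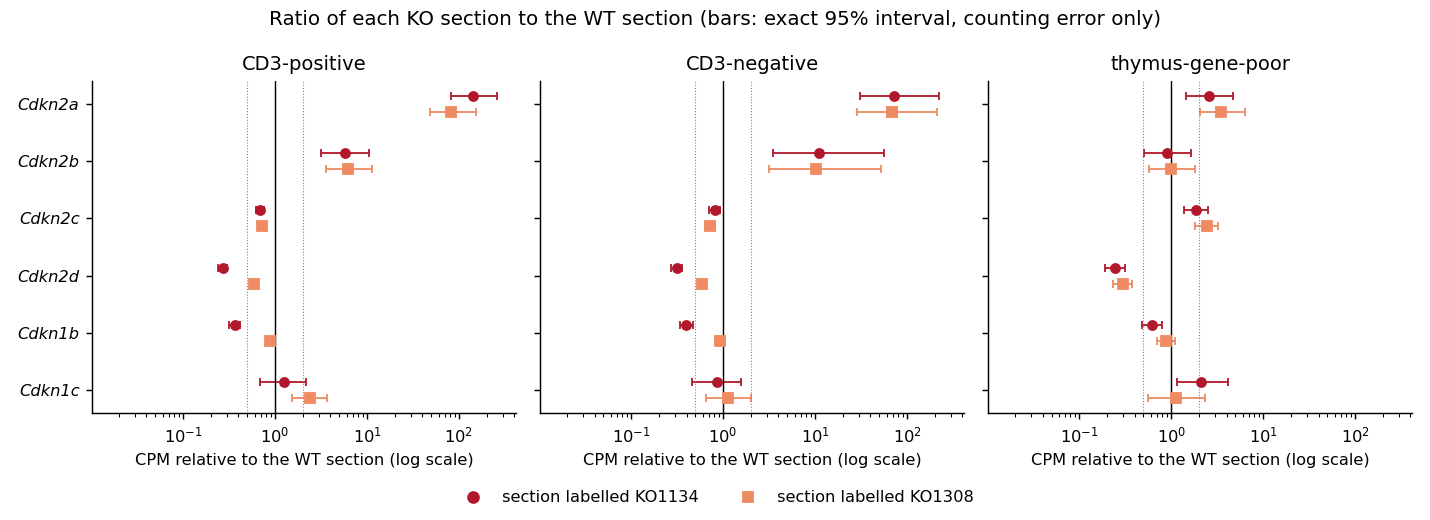
Ratio of the CPM in each KO section to that in the WT section (log axis) for the 6 inhibitors in CD3-positive bins, CD3-negative bins and thymus-gene-poor tissue; points are sections, bars exact 95% intervals of counting error, dotted lines ratios of 0.5 and 2. *Cdkn2a* and *Cdkn2b* lie above 2 in both KO sections in the thymus area, while in thymus-gene-poor tissue *Cdkn2b* lies at 0.911 and 1.00.

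*Cdkn2a* (chromosome 4 of GRCm38, 89274471 to 89294653, minus strand) stood at 77.1 CPM in KO1134 (435 UMIs), 45.3 CPM in KO1308 (285 UMIs) and 0.548 CPM in WT1101 (14 UMIs) in CD3-positive bins. Both KO sections were far above WT, with ratios of 141 (82.9 to 259) and 82.6 (48.4 to 153). The size of the ratio depended on the CD3 rule: when all 3 CD3 genes had to pass, which the rule stated in the study can be read to ask, it was 71.7 in KO1134 and 9.43 in KO1308, from 3 WT UMIs. KO1134 was also above KO1308, at 1.70 times its level (1.46 to 1.99), but this order turned with bin width. With bins of 50 µm the ratios to WT were 67.26 in KO1134 and 86.28 in KO1308. Limits on depth kept the order in CD3-positive bins. The ratios were 124.1 and 81.6 with at least 200 genes, 138.3 and 70.66 with 500, and 214.2 and 95.92 with 1000. After thinning to 500 UMIs they were 131.5 and 89.67. Over all bins of 300 to under 600 genes, which mix compartments, KO1134 was lower, at 33.1 against 86.5 CPM. In CD3-negative bins the levels were 74.6, 69.9 and 1.03 CPM, and here the KO sections did not differ beyond counting error (ratio of KO1134 to KO1308 1.07, 0.921 to 1.24). In the B-cell zone both KO sections had 13.3 CPM, which was 0.167 (0.132 to 0.209) and 0.243 (0.129 to 0.418) of the level in their thymus area. In thymus-gene-poor tissue the levels were 19.9, 27.1 and 7.74 CPM, and the ratio to WT was down to 2.57 (1.46 to 4.75) and 3.50 (2.04 to 6.32). Within WT1101 the order was the other way round: the 7.74 CPM of its thymus-gene-poor tissue were 14.2 times (7.01 to 28.2) the level of its thymus area.

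The counts cannot be split between p16Ink4a and p19Arf. The annotated transcripts of *Cdkn2a*, of 852 and 895 bases, share 575 exon bases, and the sections were counted per gene. With *Cdkn2b*, by contrast, the annotated *Cdkn2a* transcripts share 0 exact runs of 25 bases. Whether any reads of one gene were counted for the other was not tested. The sequences before the start sites are shown because *Cdkn2a* and *Cdkn2b* lie beside each other and moved by different amounts. They are the 250 bases before each RefSeq start on the minus strand of chromosome 4 (GRCm38.p6), 5′ to 3′, at chr4:89294620-89294869 for the start of p19Arf, chr4:89282193-89282442 for that of p16Ink4a and chr4:89311033-89311282 for *Cdkn2b*. Capitals mark matches on either strand to GGGCGG, the GC box bound by Sp1, and to TTTNNCGC, a pattern of E2F factors.
Cdkn2a p19Arf start: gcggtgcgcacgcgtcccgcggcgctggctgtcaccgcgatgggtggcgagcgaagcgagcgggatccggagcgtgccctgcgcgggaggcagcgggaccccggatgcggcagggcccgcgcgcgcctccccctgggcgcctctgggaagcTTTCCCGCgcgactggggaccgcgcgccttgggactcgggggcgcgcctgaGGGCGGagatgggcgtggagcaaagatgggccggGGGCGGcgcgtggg
Cdkn2a p16Ink4a start: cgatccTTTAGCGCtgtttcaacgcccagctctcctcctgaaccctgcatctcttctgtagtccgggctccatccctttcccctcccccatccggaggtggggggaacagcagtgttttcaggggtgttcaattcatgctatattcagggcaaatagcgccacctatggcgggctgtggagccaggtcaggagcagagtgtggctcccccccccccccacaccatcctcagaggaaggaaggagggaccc
Cdkn2b start: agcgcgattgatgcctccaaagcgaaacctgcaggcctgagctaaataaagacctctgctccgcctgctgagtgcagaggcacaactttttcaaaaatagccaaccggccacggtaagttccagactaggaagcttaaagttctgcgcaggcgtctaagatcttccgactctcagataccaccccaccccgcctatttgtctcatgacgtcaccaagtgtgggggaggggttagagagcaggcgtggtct
The p19Arf start holds 40 CpG dinucleotides and is 78.4% G or C, with 2 GC boxes and 1 E2F pattern. The p16Ink4a start holds 7 CpG, 0 GC boxes and 1 E2F pattern, and *Cdkn2b* holds 12 CpG and neither pattern. Among 32851 RefSeq promoter windows of this length the median was 6 CpG, 32.7% held a GC box and 4.3% an E2F pattern. These matches describe letters in a window and not binding. Of the 6 genes, 5 had a promoter entry, and *Cdkn1c* did not.

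*Cdkn2b* (chromosome 4, 89306299 to 89311039, minus strand), which encodes p15Ink4b, an INK4 inhibitor induced by TGF-β, lies 24 kb from *Cdkn2a* between the midpoints of the genes. In CD3-positive bins it had 4.96 CPM in KO1134 (28 UMIs), 5.40 CPM in KO1308 (34 UMIs) and 0.862 CPM in WT1101 (22 UMIs). Both KO sections were above WT, at 5.76 (3.18 to 10.6) and 6.27 (3.56 to 11.3) times its level, and they did not differ from each other beyond counting error (0.919, 0.537 to 1.56). In CD3-negative bins it had 6.82, 6.28 and 0.618 CPM, the WT value resting on 3 UMIs. Over the whole thymus area it had 5.22, 5.51 and 0.704 CPM from 117, 76 and 27 UMIs, with ratios of 7.41 (4.85 to 11.7) and 7.83 (4.99 to 12.6). In the thymus area *Cdkn2b* was thus also above WT in both KO sections, with a smaller fold than *Cdkn2a*. There were 15.5, 8.38 and 0.636 *Cdkn2a* UMIs per *Cdkn2b* UMI in CD3-positive bins of KO1134, KO1308 and WT1101. In thymus-gene-poor tissue *Cdkn2b* stood at 9.96, 10.98 and 10.93 CPM, and the ratios to WT, 0.911 (0.503 to 1.66) and 1.00 (0.568 to 1.80), showed no difference at this depth from a WT tissue rich in medullary markers. The call was not kept in KO1134 under 2 alternatives: when all 3 CD3 genes had to pass, or each bin was thinned to 500 UMIs, 0 *Cdkn2b* UMIs were left there. Thinning was a random draw that leaves few UMIs of so scarce a gene, so this 0 does not by itself show a dependence on depth.

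*Cdkn2b* was higher in bins rich in medullary markers in all 3 sections. In the 5% of tissue bins richest in the medullary epithelial list it had 12.7 CPM in KO1134, 14.8 CPM in KO1308 and 8.94 CPM in WT1101, which was 2.53 (1.52 to 4.01), 2.49 (1.24 to 4.54) and 8.99 (4.29 to 17.5) times the level in the other bins. The counting intervals of these 3 levels overlapped. Of these bins 53.2%, 57.8% and 35.3% lay in the thymus area, and *Ccl21a*, the leading marker, also had 730 and 749 CPM in the B-cell zone of KO1134 and KO1308. Bins rich in dendritic cell genes gave similar multiples of *Cdkn2b*, at 2.22 (1.26 to 3.67), 2.47 (1.19 to 4.61) and 10.2 (4.86 to 19.9). The dendritic cell list was also higher in CD3-positive bins of the KO sections, at 173.7, 127.7 and 66.45 CPM in KO1134, KO1308 and WT1101. So were the fibroblast list (295.3, 293.7 and 118.9 CPM) and the white adipocyte list (332.7, 299.6 and 85.84 CPM). The part of these lists in the *Cdkn2b* level was not tested. The medullary list itself was higher in the KO thymus: its 7 markers, all detected, summed to 563, 594 and 134 CPM in CD3-positive bins, with *Ccl21a* the most abundant in KO1134 and WT1101 and the keratin *Krt5* in KO1308. The thymus area was therefore also split by the medullary list in the surrounding 7 × 7 bins, a split chosen after the data were seen. Between 500 and 2000 CPM of the list, *Cdkn2b* had 8.18, 8.90 and 2.27 CPM (59, 59 and 6 UMIs), a ratio to WT of 3.61 (1.56 to 10.2) and 3.93 (1.70 to 11.1). From 100 to 500 CPM the ratios were 5.51 (2.53 to 13.7) and 2.74 (1.05 to 7.64). Below 100 CPM they were 4.33 (1.81 to 10.3) and 2.51 (0.0591 to 16.7), the latter from 1 UMI. In 5 of these 6 comparisons the interval lay above 1, and each ratio was below the 7.41 and 7.83 of the undivided thymus area. At 2000 CPM or more there were no WT bins.

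*Cdkn2a* had a different relation to the medullary markers in each section. In the bins richest in medullary markers it was 0.427 (0.310 to 0.573) times the level of the other bins in KO1134, 1.29 (0.949 to 1.72) times in KO1308 and 5.48 (1.87 to 13.3) times in WT1101. So in WT1101 *Cdkn2a* was higher in the bins rich in medullary markers, while in KO1134 it was lower there. By medullary class of the thymus area the ratios to WT fell from 401 (183 to 1099) and 185 (76.8 to 539) below 100 CPM. They were 112 (56.7 to 261) and 68.4 (34.3 to 160) between 100 and 500 CPM. Between 500 and 2000 CPM they were 25.3 (12.2 to 63.3) and 22.02 (10.6 to 55.1). The KO level of *Cdkn2a* in these classes was 94.8, 87.1 and 66.9 CPM in KO1134 and 43.7, 53.0 and 58.3 CPM in KO1308. In WT1101 it was 0.236, 0.775 and 2.65 CPM, so the fall came mostly with the rise of the WT level. These WT levels rest on 6, 8 and 7 UMIs.

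**Figure D2:**
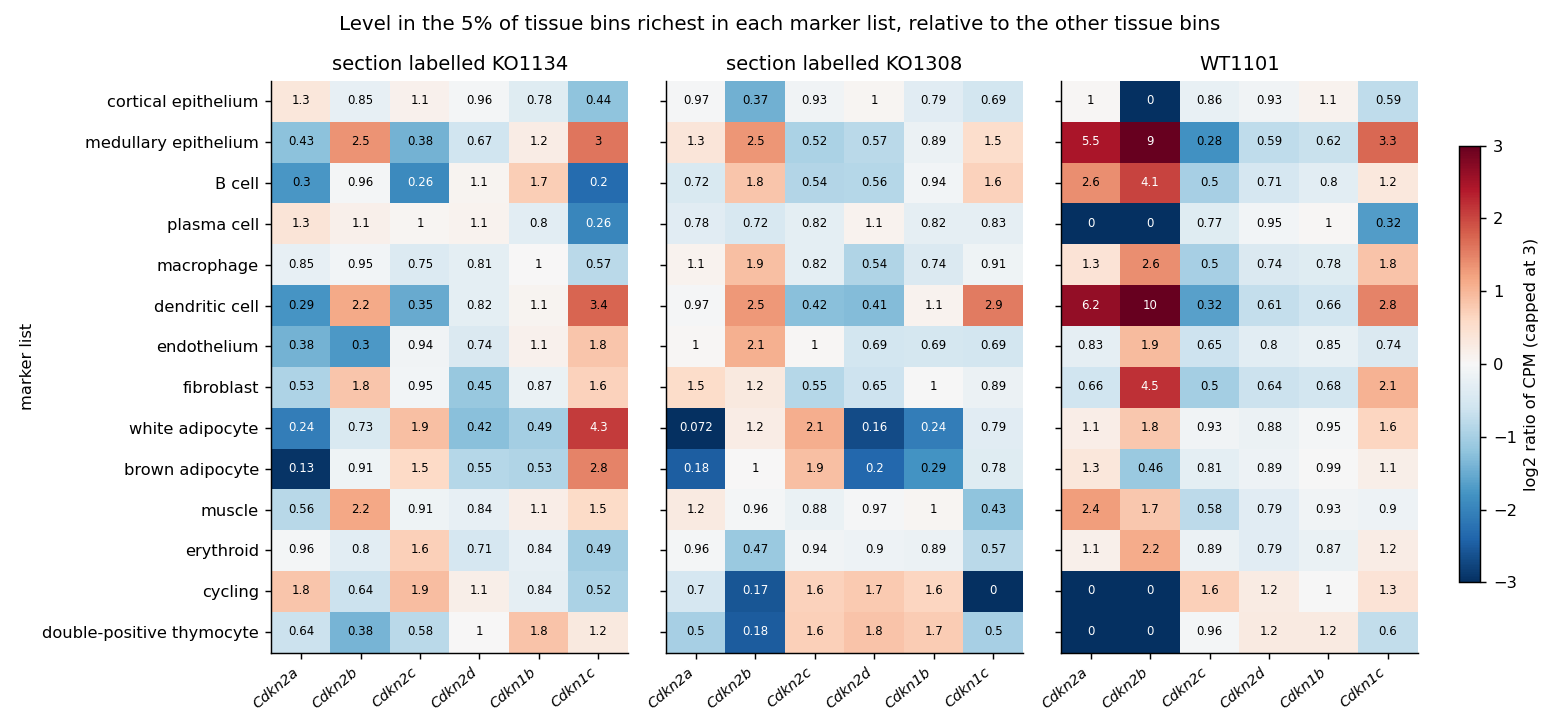
Level of each inhibitor in the 5% of tissue bins richest in each of 14 marker lists, as a multiple of the level in the other tissue bins; colour is the log2 of that multiple, capped at 3 in either direction, and the printed number the multiple itself. The *Cdkn2b* column is above 2 for medullary epithelium and dendritic cells in all 3 sections, while the *Cdkn2a* column differs between sections, at 0.43, 1.3 and 5.5 for medullary epithelium.

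No excess of *Cdkn2b* in bins with *Cdkn2a* was detectable at this depth. Thymus bins with a *Cdkn2a* UMI numbered 1489 of 8647 in KO1134, 677 of 13253 in KO1308 and 20 of 24694 in WT1101. *Cdkn2b* in these bins was 0.753 (0.435 to 1.24) times its level in the bins without *Cdkn2a* in KO1134 and 0.653 (0.132 to 1.99) times in KO1308, and 18 and 3 bins held both. For the family, the ratios were 1.18 (1.05 to 1.31) and 0.970 (0.738 to 1.25) for *Cdkn2c*, 1.23 (1.09 to 1.39) and 0.805 (0.637 to 1.01) for *Cdkn2d* and 0.862 (0.729 to 1.02) and 0.769 (0.592 to 0.983) for *Cdkn1b*. Only *Cdkn1b* was below 1 in both sections among these 3, and in KO1134 its interval included 1. In squares of 540 µm the Spearman correlation of *Cdkn2a* with *Cdkn2b* was 0.02 over 35 squares of KO1134, 0.25 over 51 of KO1308 and 0.38 over 92 of WT1101; squares of a section share its library, and in WT1101 *Cdkn2a* was at 0 in 77 of them.

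**Figure D3:**
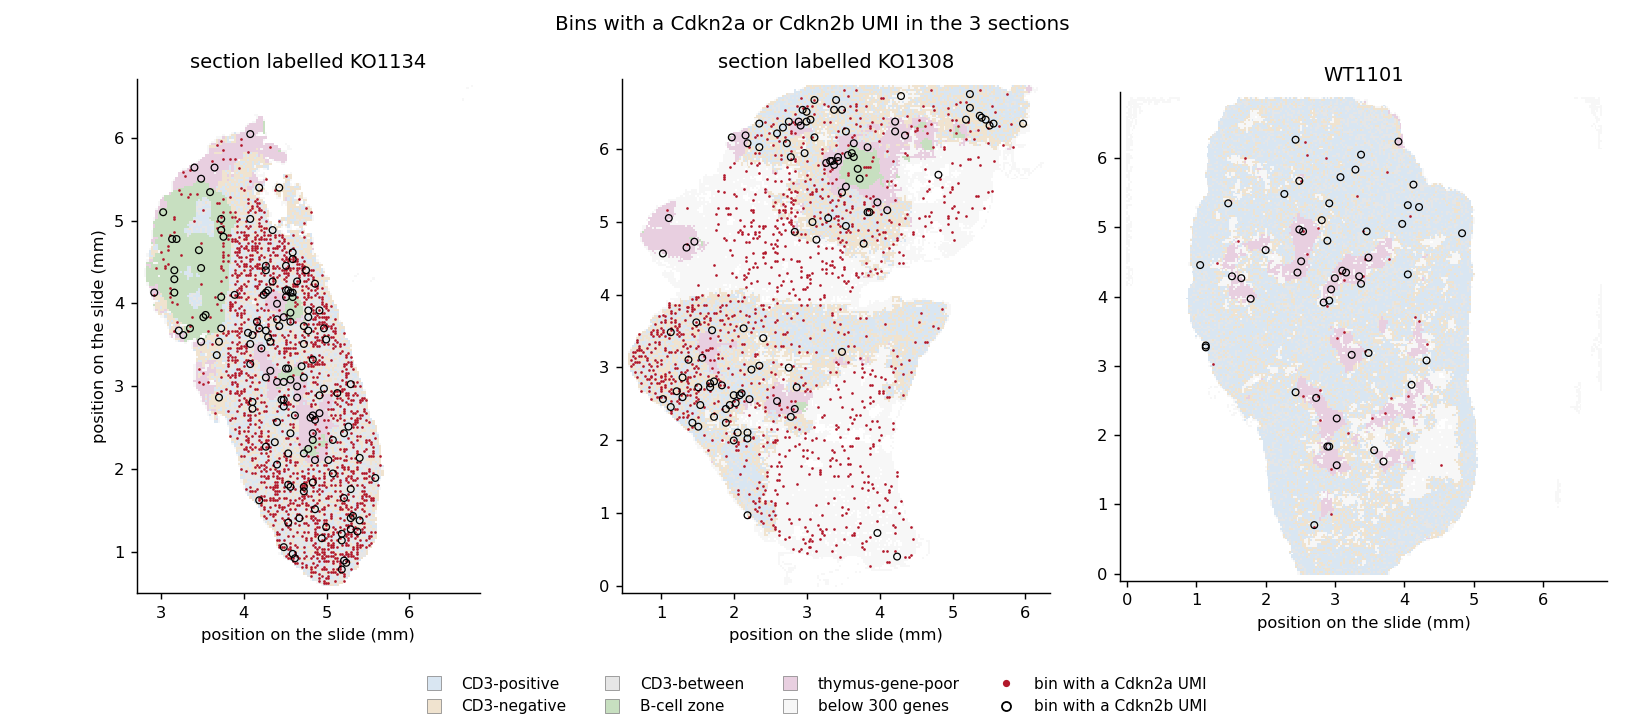
Position of bins with a *Cdkn2a* UMI (red points) or a *Cdkn2b* UMI (black circles) in the 3 sections, with axes in mm on the slide and compartments in pale colours. *Cdkn2a* covers the thymus of KO1134 densely and continues into bins below 300 genes in KO1308, while *Cdkn2b* bins are sparse in all sections and both genes are rare in WT1101, where 20 thymus bins hold *Cdkn2a*.

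Other genes near *Cdkn2a* were compared to see whether the difference ran along the chromosome. Of 71 listed genes within 1 Mb, 16 had at least 30 UMIs over the 3 sections. In CD3-positive bins *Mtap*, which encodes a methionine salvage enzyme and lies 125 kb away by midpoint, had 83.1, 38.3 and 30.8 CPM, a ratio of 2.70 (2.40 to 3.03) in KO1134 and 1.24 (1.07 to 1.44) in KO1308. The long non-coding genes *Gm26525* and *Gm26867* were also higher in KO1134, at 3.42 and 3.08, and at 0.811 and 1.12 in KO1308. *AL805899.1* had 21, 2 and 0 UMIs and *Gm12602* 7, 1 and 0, and no fold was computed against a group at 0. *Gm12606*, which lies next to *Cdkn2a*, was at 2.88 (0.947 to 8.14) and 2.95 (1.03 to 8.05), from 7, 8 and 11 UMIs, and *Gm12610* had 7, 2 and 1 UMIs. *Dmrta1*, on the other side of *Cdkn2b*, was at 1.86 (0.654 to 4.73) and 3.58 (1.66 to 7.62). Of the remaining genes, *Focad* was at 1.58 and 1.10, *Hacd4* 1.54 and 0.949, *Klhl9* 1.05 and 0.698 and *Gm13274* 1.47 and 0.913, with *Gm13284* at 2.62 and 0.427 and *Mrpl48-ps* at 0.787 and 2.12 from few UMIs. The 14 genes with a WT UMI include *Cdkn2a*, which set the region, and *Cdkn2b*, both at least 2-fold above WT in both KO sections. Among the other genes only *Gm12606* and *Gm12610* were, the last with 1 WT UMI. *Mtap*, *Gm26525*, *Gm26867* and *Gm13284* passed that limit in KO1134 alone, and *Dmrta1* and *Mrpl48-ps* in KO1308 alone. Of 1252 chromosome 4 genes with the same minimum and a WT UMI, 14.8% were at least 2-fold above WT in both. Over chromosome 4 the median ratio was 1.01 and 1.08 for the 875 genes with at least 100 UMIs.

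*Cdkn2c* (chromosome 4, 109660876 to 109667189, minus strand) encodes p18Ink4c, an INK4 inhibitor known for restraining the division of thymocytes and plasma cells. It had 78.4 CPM in KO1134, 83.2 CPM in KO1308 and 115 CPM in WT1101 in CD3-positive bins, and 80.2, 71.2 and 98.8 CPM in CD3-negative bins. Both KO sections were below WT in both compartments, at 0.680 (0.614 to 0.752) and 0.723 (0.657 to 0.793) in CD3-positive bins, and they did not differ from each other beyond counting error (0.941, 0.828 to 1.07). In thymus-gene-poor tissue the order turned, with 56.7, 73.9 and 30.5 CPM and ratios of 1.86 (1.38 to 2.52) and 2.42 (1.83 to 3.24). In the B-cell zone it had 26.8 and 26.7 CPM. *Cdkn2c* was high in bins rich in the cycling list (*Mki67*, *Top2a*, *Cdk1*, *Ccnb1*, *Birc5* and *Aurkb*) in all sections, at 1.896, 1.61 and 1.64 times the other bins, and low in medullary bins, at 0.377, 0.515 and 0.284 times. In bins rich in white adipocyte genes it was at 1.88 (1.56 to 2.25) and 2.11 (1.78 to 2.49) times in KO1134 and KO1308 and 0.935 (0.807 to 1.08) in WT1101, where the list had 93.04 CPM over all tissue, 91.2 CPM of it *Fabp4*. Within the medullary classes from 100 to 500 CPM of the thymus area the ratios of KO to WT were 1.01 (0.920 to 1.11) and 1.06 (0.956 to 1.18), and from 500 to 2000 CPM 1.12 (0.929 to 1.36) and 1.05 (0.862 to 1.28). Below 100 CPM they were 0.781 (0.713 to 0.853) and 0.879 (0.707 to 1.08). The last value rests on 92 UMIs of KO1308, and the part of medullary content in the *Cdkn2c* level was not tested. The ratio also moved with the depth of the bin. Over all bins of a section with 300 to under 600 genes it was 1.45 (1.06 to 1.94) in KO1134 and 1.11 (0.918 to 1.34) in KO1308, from 600 to under 1000 genes 1.04 (0.869 to 1.24) and 0.960 (0.847 to 1.09), and from 1000 to under 2000 genes 0.534 (0.498 to 0.571) and 0.607 (0.556 to 0.660). Over these classes the level below WT was thus seen in the deeper bins, and in the shallowest class KO1134 was above WT. The classes mix compartments, among them thymus-gene-poor tissue, where *Cdkn2c* was above WT. In CD3-negative bins, which were shallower than CD3-positive bins, both KO sections were below WT. The ratios there were 0.812 (0.708 to 0.930) in KO1134 and 0.721 (0.628 to 0.827) in KO1308.

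*Cdkn2d* (chromosome 9, 21288410 to 21291407, minus strand) encodes p19Ink4d, which is distinct from p19Arf. It had 60.6 CPM in KO1134, 134 CPM in KO1308 and 224 CPM in WT1101 in CD3-positive bins, where WT was highest and KO1134 was at 0.453 (0.399 to 0.515) of KO1308. The ratios to WT were 0.270 (0.242 to 0.301) and 0.596 (0.554 to 0.641). CD3-negative bins gave 61.6, 117 and 197 CPM. In thymus-gene-poor tissue both KO sections passed the limit of 0.5, with 32.2, 38.4 and 130 CPM and ratios of 0.248 (0.192 to 0.317) and 0.296 (0.234 to 0.372). In bins rich in double-positive thymocyte genes, the cells that rearrange the α chain of the T cell receptor, *Cdkn2d* was 1.81 times (1.53 to 2.14) the other bins in KO1308, 1.21 times (1.09 to 1.34) in WT1101 and 1.00 times (0.821 to 1.21) in KO1134. The double-positive list summed to 219, 1748 and 2668 CPM in CD3-positive bins, the same order as *Cdkn2d*, and its part in the result was not tested. In bins rich in white adipocyte genes *Cdkn2d* was low in KO1134 and KO1308, at 0.417 and 0.157 times.

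*Cdkn1b* (chromosome 6, 134920401 to 134925513, plus strand) encodes p27Kip1, an inhibitor of CDK2 that is high in resting lymphocytes. In CD3-positive bins it had 45.4 CPM in KO1134, 109 CPM in KO1308 and 125 CPM in WT1101. KO1134 was below the others, at 0.364 (0.319 to 0.414) of WT, whereas KO1308 was at 0.874 (0.804 to 0.949). Both KO sections were thus below WT beyond counting error. The difference between the KO sections (0.417, 0.359 to 0.482) was larger than that between KO1308 and WT1101, so no shift beyond the spread between mice can be read from it. The double-positive list had the same order of sections, and its part in the result was not tested. CD3-negative bins gave 45.7, 105 and 114 CPM. In the B-cell zone *Cdkn1b* was the most abundant of the 6 genes in both KO sections, with 78.3 and 64.7 CPM, which was 1.79 (1.60 to 2.002) times its thymus level in KO1134 and 0.614 (0.469 to 0.791) times in KO1308. Bins rich in double-positive genes had 1.82, 1.71 and 1.20 times the level of other bins.

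*Cdkn1c* (chromosome 7, 143458339 to 143461050, minus strand) encodes p57Kip2, an imprinted KIP inhibitor of stem and stromal cells. An antisense gene, *Gm44732*, overlaps it, and whether strand was used in counting is not given in the sources used here, so its UMIs may include both. It was scarce, with 3.01, 5.72 and 2.39 CPM in CD3-positive bins of KO1134, KO1308 and WT1101, ratios of 1.26 (0.691 to 2.19) and 2.39 (1.54 to 3.67). KO1308 was above WT and KO1134 was not distinguishable from it at this depth. CD3-negative bins gave 4.55, 6.09 and 5.35 CPM, and thymus-gene-poor tissue 14.6, 7.69 and 6.83 CPM. Bins rich in dendritic cell genes had 3.36 (1.98 to 5.42), 2.94 (1.55 to 5.14) and 2.81 (1.31 to 5.35) times the level of other bins. *Cdkn1a*, the remaining CIP/KIP gene, which encodes p21 and is a p53 target, had 3.90, 7.94 and 9.48 CPM in CD3-positive bins, with ratios of 0.412 (0.253 to 0.638) and 0.838 (0.605 to 1.14).

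**Figure D4:**
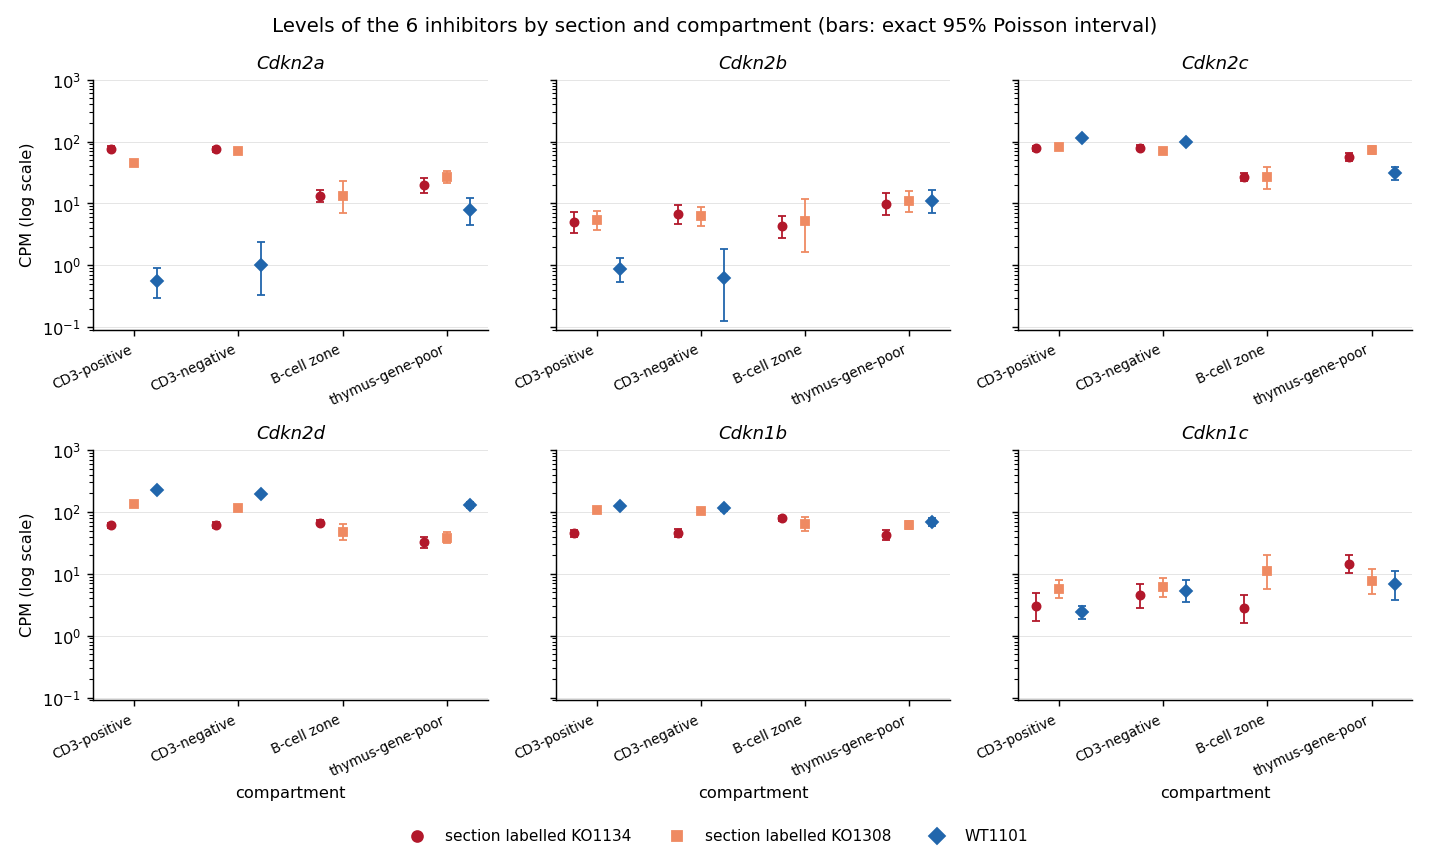
CPM (log axis) of the 6 inhibitors in each compartment of the 3 sections, with exact 95% Poisson intervals as bars; WT1101 has no B-cell zone. In *Cdkn2a* and *Cdkn2b* the WT point lies below both KO points in CD3-positive and CD3-negative bins, in *Cdkn2c* and *Cdkn2d* it lies above both, and *Cdkn2c* changes order in thymus-gene-poor tissue.

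Over the family as a whole the KO thymus did not hold more inhibitor UMIs than the WT thymus. The 6 genes summed to 269 CPM in KO1134, 382 CPM in KO1308 and 468 CPM in WT1101 in CD3-positive bins, and the sum without *Cdkn2a* and *Cdkn2b* was 187, 332 and 467 CPM. The cycling list (6 of 6 detected, led by *Mki67* or *Top2a*) had 923, 1475 and 1627 CPM and the double-positive list 219, 1748 and 2668 CPM in these bins, the same order as the family sum, and their part in it was not tested. The share of *Cdkn2a* in the family sum was 28.6%, 11.8% and 0.117%. The most abundant gene, in captured UMIs, was *Cdkn2c* in KO1134 and *Cdkn2d* in KO1308 and WT1101. In KO1134 *Cdkn2c* and *Cdkn2a* lay within counting error of each other, with 442 and 435 UMIs. The mean ratio of KO to WT for the 4 genes *Cdkn2c*, *Cdkn2d*, *Cdkn1b* and *Cdkn1c* in sum was 0.556, from 0.402 in KO1134 and 0.711 in KO1308. Of these 4, *Cdkn2c*, *Cdkn2d* and *Cdkn1b* were below WT in both KO sections and *Cdkn1c* above in both, with intervals that reached 1 for *Cdkn1c* in KO1134. Over all genes 31.7% were below WT in both KO sections and 38.8% above. These directions were not all kept in the medullary classes of the thymus area. In KO1134 *Cdkn1c* was at 0.913 below 100 CPM, 2.06 from 100 to 500 CPM and 0.463 (0.243 to 0.895) from 500 to 2000 CPM. In KO1308 it was at 1.36, 2.30 and 1.11. *Cdkn1b* in KO1308 was at 0.9815 (0.895 to 1.08) from 100 to 500 CPM and 0.984 (0.847 to 1.15) from 500 to 2000 CPM.

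The level of *Cdkn2a* depended on the depth of the bin, in opposite directions in the KO sections. These levels are over all bins of a section and so mix compartments. In KO1308 it had 305 CPM in bins of 50 to under 100 genes, 255 CPM from 100 to under 200, 149 CPM from 200 to under 300, 86.5 CPM from 300 to under 600, 48.8 CPM from 600 to under 1000 and 35.3 CPM from 1000 to under 2000 genes. In KO1134 it had 33.1 CPM from 300 to under 600 genes, 46.1 CPM from 600 to under 1000, 60.1 CPM from 1000 to under 2000 and 68.7 CPM at 2000 or more, and 0 UMIs in the 435 bins below 300 genes, where 3 UMIs would be 38.5 CPM. WT1101 had 7.57 CPM (3.04 to 15.6) from 7 UMIs below 300 genes and 0.464 CPM (0.254 to 0.778) at 1000 or more. The ratio to WT therefore also moved with depth. It was 11.5 (5.08 to 28.3) in KO1134 and 30.0 (15.6 to 66.2) in KO1308 from 300 to under 600 genes, 22.6 (12.9 to 42.04) and 23.9 (14.2 to 43.3) from 600 to under 1000, and 137 (81.3 to 251) and 76.2 (44.8 to 141) at 1000 or more. For *Cdkn2b* the ratios were 2.82 (0.841 to 8.56) and 2.60 (1.26 to 5.90) from 300 to under 600 genes, 2.08 (0.818 to 4.94) and 2.63 (1.42 to 5.04) from 600 to under 1000, and 6.77 (4.38 to 10.9) and 7.32 (4.44 to 12.4) at 1000 or more. In the shallower classes the *Cdkn2b* interval of KO1134 included 1, with 6 and 9 UMIs.

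**Figure D5:**
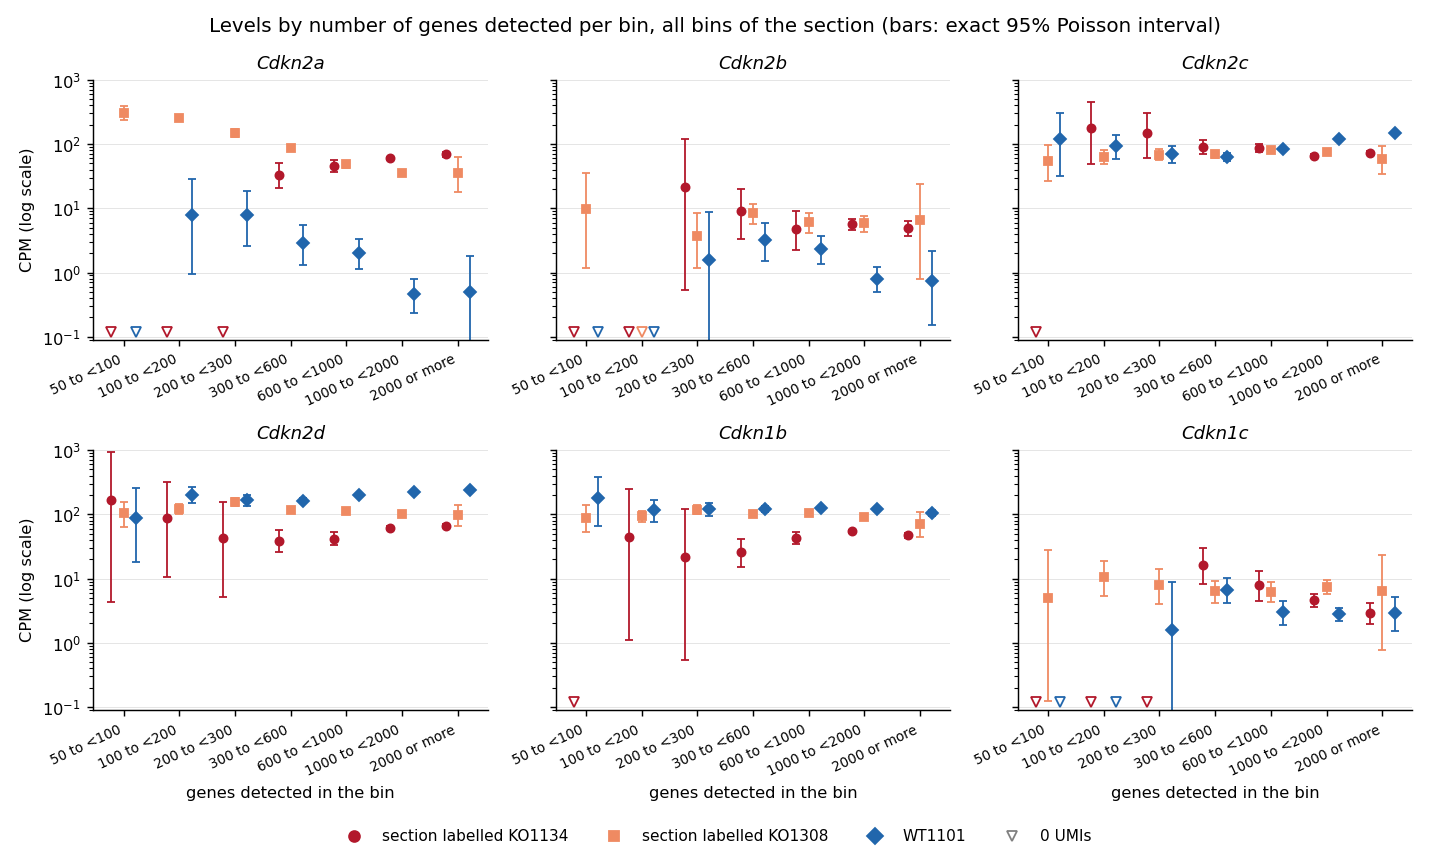
CPM (log axis) of the 6 inhibitors by number of genes detected in the bin, over all bins of each section including those below 300 genes; bars are exact 95% Poisson intervals and open triangles mark 0 UMIs. *Cdkn2a* falls from 305 to 35.3 CPM with depth in KO1308 and rises from 33.1 to 68.7 CPM in KO1134.

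The shallow bins of KO1308 numbered 13777 below 300 genes, with 2636019 UMIs, and whether they overlie tissue was not tested. Set beside bins of at least 1000 genes of the same section, *Cdkn2a* was 5.75 times as high there, with 26 of 12327 genes higher. *Cdkn2d* was also higher in the shallow bins, by less, at 1.37 times (137 CPM, 123.5 to 152.2, against 100.3 CPM, 93.9 to 107). Of the other inhibitors, *Cdkn2b* was at 0.456, *Cdkn2c* at 0.891, *Cdkn1b* at 1.16 and *Cdkn1c* at 1.19. The genes with the largest ratios were *Gm42850* (15.4), *Trim69* (11.8), *Gm49124* (11.01), *Ryr1* (10.8) and *4930525G20Rik* (9.98), and *Gm42850* was also first in WT1101 (28.7). In WT1101 *Cdkn2a* was 16.3 times as high in the shallow bins, from 7 and 14 UMIs. It was not among the 13606 ranked genes, of which 1 had a larger ratio, so it has no rank there. A higher level in shallow bins was thus seen in WT1101 as well as KO1308, but not in KO1134. There *Cdkn2a* had 0 UMIs below 300 genes (upper limit 47.3 CPM) and 63.4 CPM at 1000 genes or more. In 34 squares of KO1308 that held both kinds of bin, the shallow bins had the higher *Cdkn2a* level in 28 and the lower in 6. The part of depth and of place in the *Cdkn2a* level was not tested further.

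Because a share of bins depends on depth, it was also given at an equal number of UMIs per bin. *Cdkn2a* was found in 15.6% of CD3-positive bins of KO1134 (14.2 to 17.2) and 4.48% of KO1308 (3.95 to 5.05), and after thinning each bin to 500 UMIs in 3.29% (2.60 to 4.10) and 2.25% (1.86 to 2.70). Thinning left out bins under 500 UMIs, 26 of the 2307 in KO1134 and 719 of the 5696 in KO1308, where *Cdkn2a* was higher in the shallower bins. A bin held at most 3 or 4 *Cdkn2a* UMIs there. *Cdkn2b* was found in 1.04% and 0.527% of these bins, and after thinning in 0 of 2281 bins of KO1134, with an exact 95% upper limit of 0.162%, and in 0.281% (0.154 to 0.471) of KO1308. The thinned intervals of the KO sections overlap only at their ends for both genes. Such an overlap does not show that the sections were alike, and their difference after thinning was not tested. In squares of 540 µm *Cdkn2a* ranged from 0 to 121 CPM around a median of 74.4 CPM in KO1134 and from 0 to 212 CPM around 48.4 CPM in KO1308. Its Spearman correlation with the cycling list over the squares was 0.75 in KO1134, −0.46 in KO1308 and −0.26 in WT1101, a difference of sign between the KO sections that was not tested.

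The regulators and targets of these inhibitors were taken from a list of 41 genes of the G1 to S transition. In CD3-positive bins 1 of the 41, the D cyclin *Ccnd2*, was at least 2-fold above WT in both KO sections (42.7, 41.9 and 17.1 CPM, ratios 2.502 and 2.456) and 1, the transcription factor *Ets2*, at or below 0.5 of WT in both (88.6, 295 and 791 CPM, ratios 0.112 and 0.373), beside 7.48% and 1.59% of all genes. The other 39 passed neither limit. Of the 41, 23 were below WT in both KO sections and 8 above, beside 31.7% and 38.8% of all genes. The median ratio of the list was 0.672 in KO1134 and 0.881 in KO1308, beside 0.983 and 1.10 over all genes. The cycling list, at 923, 1475 and 1627 CPM, was also below WT in both KO sections, and its part in these ratios was not tested. The kinases bound by INK4 proteins did not move alike: *Cdk6* had 566, 140 and 154 CPM, with a ratio of 3.68 (3.51 to 3.86) in KO1134 and 0.912 (0.846 to 0.981) in KO1308, and *Cdk4* was at 1.74 and 1.08. *Ccnd3*, the D cyclin that thymocytes depend on, had 162, 578 and 539 CPM, so KO1134 was low (0.300) and KO1308 was not (1.07). *Ccnd1* was at 3.12 and 1.44, *Cdk2* at 0.611 and 0.746 and *Rb1*, which encodes the retinoblastoma protein, at 0.647 and 0.718. In CD3-negative bins 0 genes of the list were above and 1, *Ets2*, below, beside 5.1% and 2.24% of all genes. In thymus-gene-poor tissue 0 were above and 7 below (*Ccnd3*, *E2f2*, *Cdc25a*, *Ezh2*, *Suz12*, *Ets1* and *Ets2*), beside 5.03% and 4.64% of all genes, with 4 genes of the list under the minimum of 100 UMIs. Of the 37 that passed it, 32 were below WT in both KO sections, and 58.0% of all genes were below WT in both there.

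The genes whose levels were most like those of each inhibitor were sought over the 11 values of section and compartment, by Pearson correlation of log2(CPM + 1) among 16681 genes. These values share libraries and cell content, and the correlation is a description. For *Cdkn2a* they were *Gm48690* (0.98), *Gm13653* (0.964), *Fam84b* (0.962), *Kdelr2* (0.955) and *Gm12630* (0.948), and *Cdkn2b* was at 0.692. For *Cdkn2b* they were *Socs2*, *Sema4a* and *5031439G07Rik* (0.960 to 0.955). *Cdkn2c* was nearest to *Cyp4f15*, *Zfyve21* and *Gm47976* (0.948 to 0.940) and *Cdkn1c* to *Adgra2*, *Rgl3* and *Tns4* (0.951 to 0.914). *Cdkn2d* was nearest to *Dgkd*, *Trbc2* and *Def6* (0.989 each), and *Cdkn1b* to *Cd8b1*, *Mterf1a* and *1810026B05Rik* (0.969 to 0.959). *Trbc2* encodes a constant region of the T cell receptor and *Cd8b1* a chain of the coreceptor CD8. *Cdkn2d* and *Cdkn1b* were alike, at 0.846, while *Cdkn2a* and *Cdkn2c* were not (−0.057).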

How the data were processed

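Thymus sections of 2 *Trp53*-/- mice and 1 WT mouse were measured by spatial transcriptomics. By the study's methods the reads went through BSTMatrix and STAR, and the submitters' processing notes name the build GRCm38. The deposited files hold raw UMI counts of each gene in each barcoded spot, as whole numbers, with spot positions. Total UMIs were 31237062 in the section labelled KO1134, 21089885 in KO1308 and 41581477 in WT1101. The bins described for 1 KO mouse in the study's sample table were nearer in number to the section labelled as the other KO mouse, and the labels were kept.

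Spots 4.8 µm apart were summed in 27 µm bins. Bins were kept at 300 genes and 30% mitochondrial UMIs, in connected groups of at least 200. A CD3-positive bin had at least 1 of 3 CD3 genes at ln(1 + UMIs per 10000) of 2 or more, and a CD3-negative bin had all below 1. In the thymus area 6 thymus genes reached 50% or more of their share over the whole section. CPM was computed from summed counts, with exact Poisson intervals, exact conditional binomial intervals of ratios and exact binomial intervals of shares at 95%. No test between genotypes was made. Genes with at least 100 UMIs over the sections formed the background, and a ratio of 2 or 0.5 in both KO sections served as the limit. The text names the 6 genes, *Trp53*, *Cdkn1a*, the D cyclins, CDKs, *Rb1* and genes past the limit in the G1 list, genes with 30 UMIs within 1 Mb of *Cdkn2a*, and the genes most alike in level. Members and lists were chosen with earlier results of these data known; *Gm42850* and the genes named with it were chosen by their values. Of the listed identifiers, 54809 were found in GENCODE M21. Computations were tested on simulated data. Versions were matplotlib 3.10.9, pandas 2.3.3, scipy 1.17.1 and numpy 2.4.6 under Python 3.11.15. Bin width, limits, CD3 rule, denominator, thinning, weights, thymus share and the B-cell zone were varied. The authors' clustering was not used here, and 1 marker list is not reported here.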

Additional observations from a re-analysis of the deposited data

Results flagged for a closer look

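*Cdkn2c* went opposite ways in the thymus area and in thymus-gene-poor tissue. Its mean ratio of KO to WT was 0.702 in CD3-positive bins and 0.766 in CD3-negative bins, below 1 in both KO sections, and 2.14 in thymus-gene-poor tissue, above 1 in both. The difference between these compartments was not tested. Beside it, the white adipocyte list in thymus-gene-poor tissue stood at 4361 CPM in KO1134, 6025 CPM in KO1308 and 105 CPM in WT1101, where this tissue carried 1264 CPM of medullary markers and 1148 CPM of the CD3 genes, and *Cdkn2c* was 1.88 and 2.11 times as high in the fat-rich bins of KO1134 and KO1308 as in their other bins; their part in the result was not tested.

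*Cdkn2a* was also seen in bins that the compartments left out. Among the shallow bins of KO1308, which the depth classes already describe, 8361 lay more than 5 bins from kept tissue, so they are no independent data. There it had 284 CPM (256 to 314, from 374 UMIs), against 48.3 CPM in the kept tissue of the same section and 8.47 CPM (0.214 to 47.2, 1 UMI) in such bins of WT1101. *Cdkn2b* (2.28 CPM, 3 UMIs) and *Cdkn2c* (54.7 CPM) were not above their tissue levels there, whereas *Cdkn2d* had 139 CPM (120 to 161) against 106 CPM in tissue. *Cdkn1b* had 101 CPM (84.6 to 120), an interval that includes its 96.2 CPM in tissue. The difference was not tested.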

How the results depend on the processing

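Alternatives were run for 5 summary values in CD3-positive bins: the mean ratios of *Cdkn2a*, *Cdkn2b* and the other 4 inhibitors and the numbers of inhibitors and of genes above the limit. The 3 mean ratios stayed on their side of WT, but in KO1134 alone *Cdkn2b* went from 5.76 times WT to 0 UMIs with all 3 CD3 genes and after thinning. In CD3-positive bins the mean *Cdkn2a* ratio of 111.6 became 40.58 when all 3 CD3 genes had to pass (3 WT UMIs; 71.7 in KO1134 and 9.43 in KO1308), 181.6 with the thymus area at 100% of the share and, in alternatives added after seeing the data, 155.1 at 1000 genes and 21.4 among bins with 500 to 2000 CPM of medullary markers. The *Cdkn2b* ratio of 6.015 became 9.046 and 4.602 at bins of 20 and 50 µm, 1.768 with all 3 CD3 genes (2 WT UMIs), 4.853 with 2 CD3 UMIs, 2.826 after thinning, 5.541 with equal weights and 5.269 at the 100% share, and, added later, 8.191 at 1000 genes, 7.623 over the thymus area and 3.744 in the medullary class. The number of inhibitors above the limit, 2, became 1 with all 3 CD3 genes and 1 after thinning. The sum of the other 4 inhibitors stayed within the spread of the KO sections in 15 of 15 alternatives. Those that left out KO1134 or KO1308 are the ends of that spread and lie within it by construction. The number of genes above the limit, 1095, became 55 with all 3 CD3 genes, 497 after thinning, 1900 at 30 UMIs, 3599 with no filter and, added later, 1767 over the thymus area. Leaving out KO1134 or KO1308 gave 82.57 to 140.7 for *Cdkn2a*, 5.761 to 6.269 for *Cdkn2b*, 2 to 3 inhibitors, 0.4015 to 0.7107 for the other 4 and 1872 to 2115 genes. No paired analysis was possible because there was 1 WT section. Depth limited *Cdkn2b*, *Cdkn1c* and WT *Cdkn2a*, each with fewer than 100 UMIs in CD3-positive WT bins, and the 1 WT section limits every comparison of genotypes.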
